A study of Mus musculus with 6 samples.

Results

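The genes described here encode the Usher syndrome protein network, and comprise Myo7a, Cdh23, Pcdh15, Ush1c, Ush1g, Whrn, Adgrv1, Clrn1 and Cib2. They were taken by gene symbol from the 6 per-library gene tables. All 9 were listed in the files, of 19401 genes listed in all, and all 9 passed the filter on low counts, as did 15537 genes of the whole series. Their choice used no threshold on a measured value.

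Mutations in genes of this network cause Usher syndrome, in which deafness is combined with retinitis pigmentosa, or deafness alone. In the inner ear the proteins build the tip links and ankle links that hold the stereocilia of a hair bundle together. In photoreceptors they lie at the membrane around the connecting cilium and at the synapse, and the motor MYO7A also moves melanosomes and phagosomes in the retinal pigment epithelium (RPE), the pigmented layer that supports photoreceptors.

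Retinal RNAseq was carried out on 3 control and 3 efavirenz (EFV)-treated libraries, each a pool of retina plus RPE from 5 to 6 male 5XFAD mice at 9 months of age. All mice were hemizygous for the 5XFAD transgenes, which encode mutant human amyloid precursor protein and mutant human presenilin 1 and are driven by the Thy1 promoter of neurons, on the B6SJL background, and were free of the rd1 and rd8 retinal degeneration alleles per the methods of the study. EFV, an anti-HIV drug that activates the cholesterol-eliminating enzyme CYP46A1 at a low dose, was given in drinking water from 3 months of age at 0.08 mg/kg of body weight per the labels (the methods give a slightly higher daily dose), and control mice received the Tween 80 vehicle. The comparison asks which retinal transcripts differ after this treatment; because the mice were pooled, the spread below is between pools, and in bulk tissue fewer cells of a type cannot be told apart from less RNA per cell.

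Each library held between 23455167 and 24590278 counts. Control library 3 stood apart from the other 5: the 14 lens markers summed to 2542.6 FPKM (fragments divided by transcript length and library total) there and to between 22.4 and 124 FPKM elsewhere. The 14 RPE markers summed to 50.2 FPKM in control library 2 and to between 75.8 and 93.2 FPKM in the other 5, with Rpe65, the isomerase of the visual cycle, listed in every library at 2.35 to 6.69 FPKM. Rod markers, which define the labelled tissue, were high in all libraries, and 11 of them summed to 17429.5 to 18261.6 FPKM. The 8 fibroblast and matrix markers summed to 10.38 to 11.85 FPKM in control and 11.91 to 12.86 FPKM in EFV-treated libraries. These groups did not overlap, but only by a narrow margin. Singly, 2 of the 7 markers tested did not overlap, against 8.14% of all genes tested. Fn1, the most abundant of the markers, overlapped. Of the lists described below, the sums of the hair bundle genes and of the paralogues also did not overlap, while those of the other lists did. How often such sums separate by chance was not tested.

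Among the sequences of the network, a short alternative exon of Cdh23 is shown first. The length given for Cdh23 takes nearly only values equal to those of 2 annotated transcripts, with and without this exon. The match is by length alone. The exon is 6 bases long, coding, the 13th of transcript Cdh23-202, and lies on the minus strand at chr10:60475017-60475022 (mm10, GENCODE M21). It is in capitals below, with 12 bases of the neighbouring exons on each side, and the second line is the same junction of Cdh23-205, which lacks it.
Cdh23-202: acaaggatgaggATTTGGgtctgaacagca
Cdh23-205: acaaggatgagggtctgaacagca

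For Myo7a, the member with the smallest p in the comparison below, RefSeq (GRCm38.p6) gives a start site inside the gene beside the one at its 5′ end. The 250 bases before this internal start, chr7:98109249-98109498 on the minus strand, lie in an intron, and the capitals mark the 2 places where CATGTG, a form of the E-box that the pigment cell factor MITF can bind, is found on the opposite strand.
Myo7a internal start: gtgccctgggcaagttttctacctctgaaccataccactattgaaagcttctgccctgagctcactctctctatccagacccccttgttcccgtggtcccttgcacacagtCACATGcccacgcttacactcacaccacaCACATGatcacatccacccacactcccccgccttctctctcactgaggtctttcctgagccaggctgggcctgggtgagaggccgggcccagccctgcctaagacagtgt

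RefSeq windows were matched for 8 of the 9 members, with 9 windows in all. The only window of Pcdh15, chr10:73821617-73821866 on the plus strand, also lies inside its gene, which starts at 73099342 in GENCODE M21. No window at that annotated 5′ end was read. On either strand of the 250 bases before the start, CATGTG was found in 2 of these 9 windows, those of Cdh23 and the internal start of Myo7a, and in 7.46% of the windows of tested genes. The other E-box of MITF, CACGTG, was found in 0 of 9 against 7.98%, and TAATCC, the core bound by the photoreceptor factors CRX and OTX2, in 0 of 9 against 5.25%. These motifs do not overlap each other in the windows, and a match is a description of letters only.

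The levels of the members spanned more than 2 orders of magnitude. On the FPKM scale, which is per length of transcript, Whrn was the highest with 36.0 ± 1.69 (SD, n = 6 libraries) and Cdh23 the lowest with 0.245 ± 0.0207, a 147-fold ratio of means. Adgrv1 followed Whrn with 22.3 ± 1.47, then Pcdh15 with 19.4 ± 1.18 and Cib2 with 9.15 ± 1.18. The remaining 4 formed a group near 1 FPKM, with Myo7a at 1.60 ± 0.294, Clrn1 at 1.55 ± 0.229, Ush1c at 1.23 ± 0.272 and Ush1g at 1.21 ± 0.200.

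Neighbours in this order were compared by their ranges over the 6 libraries. Whrn and Adgrv1 did not overlap, nor did Pcdh15 and Cib2, Cib2 and Myo7a, or Ush1g and Cdh23. Adgrv1 and Pcdh15 overlapped in range, although Adgrv1 was the higher in 6 of 6 libraries. Myo7a was above Clrn1 in 3 of 6 libraries, Clrn1 above Ush1c in 5 of 6 and Ush1c above Ush1g in 3 of 6. The ranges of each of these pairs overlapped, and the order within the low group was not resolved. Thus the 2 cadherins that are joined in the tip link of the ear had very different levels in this tissue, with Pcdh15 at 79.1 times Cdh23 on the FPKM scale. The scaffold Whrn was at 29.3 times the scaffold Ush1c.

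**Figure D1:**
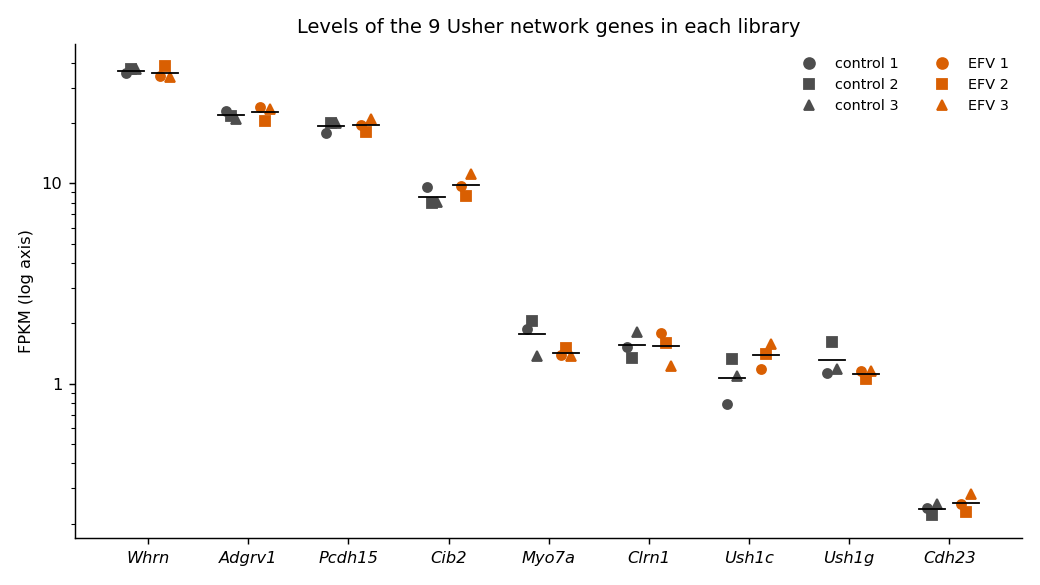
FPKM (log axis) of each member in each of the 6 libraries, control in grey and EFV-treated in orange, with the replicate number shown by the symbol and the group mean by a bar. Whrn, Adgrv1, Pcdh15 and Cib2 lie between 7.93 and 38.25 FPKM, 4 members lie between 0.79 and 2.06 FPKM, and Cdh23 lies between 0.22 and 0.28 FPKM.

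The order depended on the length by which counts were divided. The files give a weighted length for each gene, the mean of its transcript models weighted by their estimated abundance. For Adgrv1 this length was 6147 to 7189 bases, whereas its full-length coding transcript has 19338 bases, and 7 of its 8 transcript models in the files were BGI_novel, that is, assembled by the sequencing provider. For Pcdh15 it was 11876 to 12168 bases, longer than the longest annotated coding transcript of 9104 bases, with 6 of 20 models BGI_novel. When counts were divided instead by the longest annotated coding transcript, a scale chosen after the data were seen, Pcdh15 was at 25.5 and Adgrv1 at 7.56 CPM per kilobase (CPM, counts normalised to the library total), and Pcdh15 was then 3.37 times Adgrv1. On this second scale 5 of the 9 members kept their rank, since Ush1c (0.807) and Ush1g (1.15) also exchanged places. Ush1g was then above Ush1c in 6 of 6 libraries, with overlapping ranges. Cib2 kept its rank at 4.32, below its 9.15 FPKM. Whrn remained the highest (34.8) and Cdh23 the lowest (0.242).

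**Figure D2:**
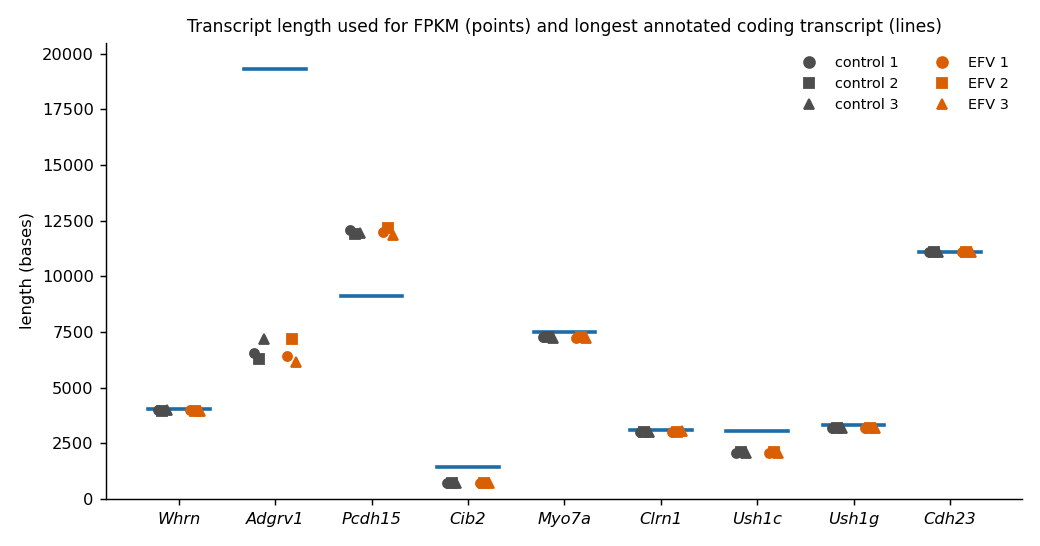
Weighted transcript length in bases that the files give for each member in each library (points, control in grey and EFV-treated in orange) and the longest annotated coding transcript of GENCODE M21 (blue lines). Adgrv1 lies far below its line of 19338 bases and Pcdh15 above its line of 9104 bases, while Whrn, Myo7a, Clrn1, Ush1g and Cdh23 lie close to theirs.

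None of the 9 members passed a test of difference between EFV-treated and control mice. At an adjusted p of 0.05 (edgeR quasi-likelihood test with Benjamini-Hochberg adjustment) 0 members were called, and the background was 0.0% of the 15537 genes tested, 472 of which had an unadjusted p up to 0.05; DESeq2 called 11 genes, none of them a member. By the limits that the study used (unadjusted p up to 0.05 and a change of at least 7%), applied here to the p of edgeR, 0 members passed against 3.01% of all genes tested. The groups did not overlap for 0 of 9 members, against 8.14% of all genes tested. On the log2 scale the median change of the 9 members was 0.01 and that of all genes tested 0.00, with 5 members above 0 and 4 below.

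**Figure D3:**
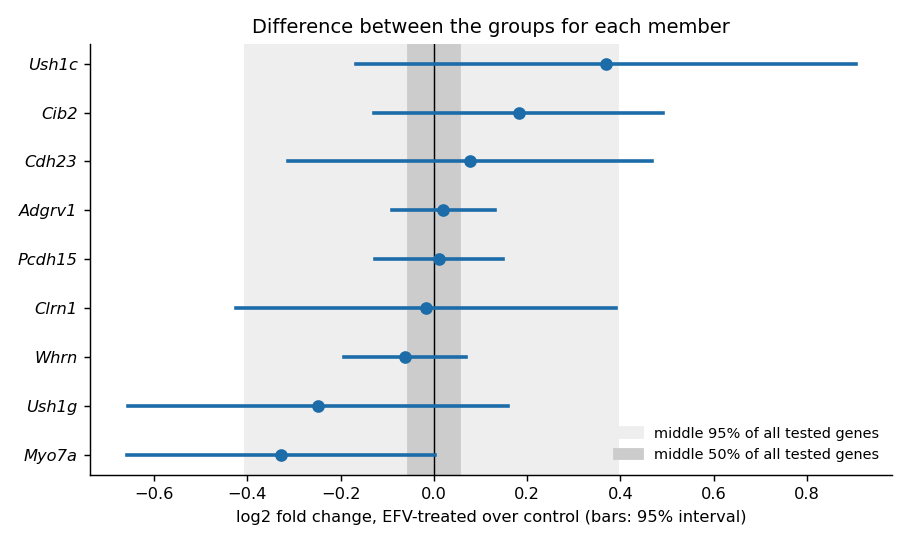
Log2 fold change of each member, EFV-treated over control, with its 95% interval from edgeR (bars). The shaded bands hold the middle 50% and the middle 95% of the log2 fold changes of all tested genes; every interval of a member includes 0, that of Myo7a by the smallest margin.

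Myo7a, the unconventional myosin that anchors tip links and carries melanosomes, had the smallest p of the network. It was at 1.87, 2.06 and 1.38 FPKM in control libraries 1, 2 and 3, and at 1.39, 1.51 and 1.38 FPKM in EFV-treated libraries 1, 2 and 3. Controls 1 and 2 were above every EFV-treated library, but control 3 was at the lowest EFV-treated value, so the groups overlapped. The means were 1.77 ± 0.351 and 1.43 ± 0.0723 FPKM (SD, n = 3 each), and the log2 fold change was -0.33 (SE 0.15, 95% interval -0.66 to 0.0014, unadjusted p = 0.0508, adjusted p = 0.999 by edgeR quasi-likelihood with Benjamini-Hochberg adjustment). In terms of fold the interval ran from 0.633 to 1.00. The spread of the control counts, not scaled to the library total, was 19.1% against 5.53% among EFV-treated libraries and about 6.00% from counting error alone. The study named Myo7a among its changed genes from these same libraries, so its direction here is not independent evidence.

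The size of the difference for Myo7a moved with the library left out and with a covariate of lens or RPE markers. Leaving out control 3, or adding the lens covariate, brought it past the limits of the study. Without control 3, which had the lens RNA, the log2 fold change was -0.48 (unadjusted p = 0.00133, edgeR), and with a lens marker covariate it was -0.48 (unadjusted p = 0.00174, edgeR). Without control 2, which had the highest Myo7a and the lowest RPE marker sum, it was -0.20 (unadjusted p = 0.211, edgeR), and with an RPE marker covariate it was -0.20 (unadjusted p = 0.294, edgeR). Myo7a was below 0 under all 18 alternatives, between -0.48 and -0.18, and 6 of them gave an unadjusted p up to 0.05. The part of lens and RPE tissue in this difference was not tested. Of the RPE markers, 11 of 13 tested were above 0 and 3 passed the limits of the study, against 3.01% of all genes tested. All 3 were higher in EFV-treated mice (Rpe65 with a log2 fold change of 0.58, Lrat with 0.65 and Stra6 with 0.35). Rpe65, Lrat and Stra6 were also chosen by the study on these samples. Leaving out a library gave 0 to 3 such calls. Each of these 3 calls was lost without 4 of the 6 libraries, and over the 6 omissions the log2 fold changes ran from 0.29 to 0.83 for Rpe65, from 0.42 to 1.06 for Lrat and from 0.22 to 0.48 for Stra6. The median log2 fold change of the tested RPE markers was 0.40, opposite in sign to that of Myo7a.

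**Figure D4:**
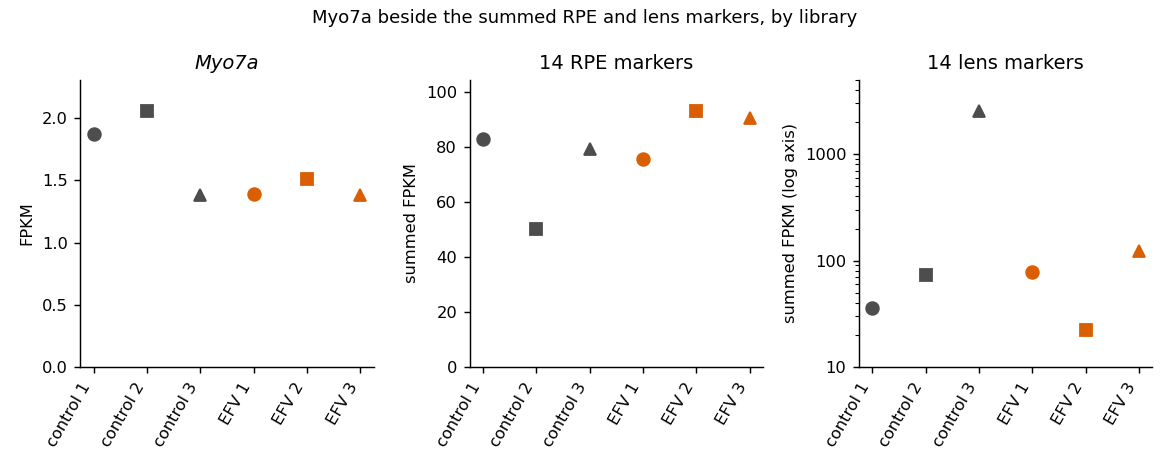
Myo7a in FPKM (left), the summed FPKM of 14 RPE markers (middle) and the summed FPKM of 14 lens markers (right, log axis) in the 6 libraries, control in grey and EFV-treated in orange. Control 2 has the highest Myo7a (2.06) with the lowest RPE sum (50.2), and control 3 has Myo7a at the EFV-treated level (1.38) with the highest lens sum (2542.6).

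The genes whose profiles over the 6 libraries were nearest to that of Myo7a, by root mean square difference of mean-centred log2 CPM, were Rbm4 (0.05), Fam111a (0.06) and Prph (0.07), an RNA-binding protein, a serine protease and the intermediate filament peripherin. Rbm4 was at 5.94, 6.51 and 4.65 FPKM in controls 1 to 3 and at 4.49, 5.00 and 4.4 FPKM in EFV-treated libraries 1 to 3. Its low control 3, as for Myo7a, follows from the choice by nearest profile. The log2 fold change of Rbm4 was -0.34 (unadjusted p = 0.0482, edgeR), and the study also chose Rbm4 on these samples. Rbm4 has a close copy in the genome, among which reads may be divided, and Fam111a was at only 0.13 to 0.22 FPKM.

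The scaffolds bind the motor and the cadherins through PDZ and ankyrin domains. Ush1c, which encodes the PDZ protein harmonin, was at 0.79, 1.32 and 1.09 FPKM in controls 1 to 3 and at 1.19, 1.41 and 1.57 FPKM in EFV-treated libraries 1 to 3. Control 1 was the low value, and control 2 lay above EFV-treated library 1. The log2 fold change was 0.37 (SE 0.24, 95% interval -0.17 to 0.91), the largest of the network in size and the least certain, with 39 to 76 counts per library. It was 0.19 without control 1 and 0.57 without control 2. The exons of Ush1c overlap the antisense gene Gm9860, and since the strandedness of the library is not given in the sources used here, reads of both cannot be told apart.

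Ush1g, which encodes the ankyrin repeat scaffold SANS, was at 1.13, 1.61 and 1.19 FPKM in control libraries and 1.15, 1.05 and 1.15 FPKM in EFV-treated libraries. A single library, control 2, was high, and the other 5 lay between 1.05 and 1.19 FPKM. The log2 fold change was -0.25 (SE 0.18, 95% interval -0.66 to 0.16), and without control 2 it was -0.07. With the RPE marker covariate it was -0.02.

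Whrn, which encodes the PDZ scaffold whirlin that holds the ankle link complex, was at 35.6, 36.9 and 37.0 FPKM in control libraries and 34.3, 38.2 and 33.9 FPKM in EFV-treated libraries. EFV-treated library 2 was above and the other 2 below all controls. The log2 fold change was -0.06 (95% interval -0.19 to 0.07), which limits a change to a fold between 0.874 and 1.05. Without EFV-treated library 2 it was -0.13 and passed the limits of the study.

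The cadherins and the adhesion receptor form the links themselves. Pcdh15, the lower part of the tip link, was at 17.9, 19.98 and 19.9 FPKM in control and 19.6, 18.1 and 20.9 FPKM in EFV-treated libraries, with both groups over the same range. Its log2 fold change was 0.01 (SE 0.06), and the 95% interval of the fold was 0.916 to 1.11. Adgrv1, the very large receptor of the ankle links, was at 23.0, 21.7 and 20.8 FPKM in control and 24.1, 20.6 and 23.6 FPKM in EFV-treated libraries. Its log2 fold change was 0.02 (SE 0.05), and its interval of 0.939 to 1.09 was the narrowest of the network. Cdh23, the upper part of the tip link, was at 0.24, 0.22 and 0.25 FPKM in control and 0.25, 0.23 and 0.28 FPKM in EFV-treated libraries. With 56 to 74 counts per library its interval was wide, from 0.804 to 1.38, around a log2 fold change of 0.08 (SE 0.17), which ran from 0.0043 to 0.13 when a library was left out (lowest without EFV-treated library 3).

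The remaining members encode a tetraspan protein and a calcium-binding protein. Clrn1, which encodes clarin-1, was at 1.52, 1.35 and 1.80 FPKM in control and 1.78, 1.60 and 1.23 FPKM in EFV-treated libraries, and the lowest and nearly the highest value were both in EFV-treated libraries. Its log2 fold change was -0.02 (95% interval -0.42 to 0.39). Cib2, which encodes the calcium and integrin binding protein of the mechanotransduction complex, was at 9.54, 7.93 and 8.06 FPKM in control and 9.63, 8.66 and 11.1 FPKM in EFV-treated libraries. EFV-treated libraries 1 and 3 were above every control, by little for library 1, and library 2 lay among them. The log2 fold change of Cib2 was 0.18 (95% interval -0.13 to 0.49), and it was 0.09 without EFV-treated library 3 and 0.27 without control 1. The files hold 1 model of 736 bases for Cib2 against an annotated 1433 bases, and its exons overlap those of the antisense gene Sh2d7.

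The members also varied to a different extent within groups. The pooled SD of log2 CPM within groups was 0.06 for Adgrv1, 0.08 for Whrn and 0.08 for Pcdh15, below the median of 0.10 of all genes tested. It was 0.31 for Ush1c, 0.24 for Clrn1, 0.23 for Myo7a and 0.20 for Ush1g, the 4 members near 1 FPKM. For Cdh23 it was 0.11, less than for these 4, with a lower level but 56 to 74 counts per library. Its counts, not scaled to the library total, varied by 9.21% in control and 9.66% in EFV-treated libraries, below its counting error of 12.4%.

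Ratios between members that act in a complex were compared within libraries, where scaling by library size cancels. For 6 fixed pairs, an exact two-sided permutation test over 3 against 3 libraries cannot give less than p = 0.10. The log2 ratio of Myo7a to Ush1c was 1.24, 0.64 and 0.34 in control libraries 1 to 3 and 0.22, 0.10 and -0.19 in EFV-treated libraries 1 to 3. Every control was above every EFV-treated library, with a difference of means of -0.70 (exact permutation p = 0.1, 0.3 after Benjamini-Hochberg adjustment over 6 ratios). The log2 ratio of Ush1g to Ush1c was 0.52, 0.29 and 0.13 in control and -0.05, -0.43 and -0.45 in EFV-treated libraries. These groups did not overlap either, with a difference of -0.62 (exact permutation p = 0.1, adjusted 0.3). Both ratios share Ush1c and are therefore not independent, and both reached only the smallest p that the design allows. Without control 1, which had the lowest Ush1c, the difference for Myo7a to Ush1c was -0.45.

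The other 4 ratios overlapped between groups. Cib2 to Myo7a differed by 0.49 on the log2 scale (2.28 ± 0.307 in control and 2.77 ± 0.243 in EFV-treated libraries, SD, n = 3 each, exact permutation p = 0.2, adjusted 0.4). The differences were 0.07 for Cdh23 to Pcdh15, -0.10 for Whrn to Adgrv1 and -0.05 for Clrn1 to Pcdh15, each within the SD of a group.

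**Figure D5:**
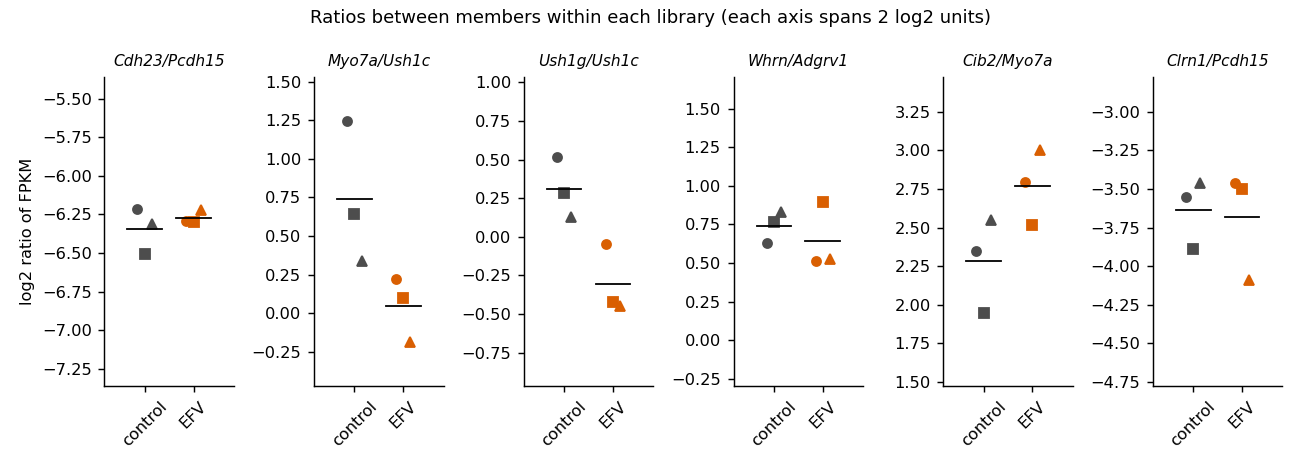
Log2 ratio of FPKM between 6 pairs of members in each library, control in grey and EFV-treated in orange, with the symbol giving the replicate number and the bar the group mean. Myo7a/Ush1c and Ush1g/Ush1c are the pairs in which all 3 controls lie above all 3 EFV-treated libraries.

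The weighted transcript lengths, which move when the use of isoforms changes, overlapped between groups for all 7 members that have more than 1 model in the files. The smallest exact permutation p was 0.2 (0.7 after adjustment over 7 members), for Cdh23. For Cdh23 the length was 11096.0 bases in control 2, the length of Cdh23-202 with the 6-base exon, and 11090.0 to 11090.2 bases in the other 5 libraries, the length of Cdh23-205 without it. Read as a mixture of these 2 transcripts, the longer made up the whole estimate in control 2 and at most 3.67% elsewhere. These shares rest on 56 counts in control 2 spread over the whole transcript, few of which can cover the exon, the match was made on length alone, and the annotated transcripts also differ at 2 other bases. Both models used for Cdh23 are RefSeq transcripts, but GENCODE M21 gives RefSeq names for Cdh23-205 and none for Cdh23-202. Model and annotated lengths can also differ, as for Ush1g with 3183 against 3306 bases. The identity of the 2 models is therefore not settled.

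The lengths of Clrn1 were 2990, 3029 and 2999 bases in control and 3029, 3028 and 3051 bases in EFV-treated libraries, with a difference of 29.95 bases (exact permutation p = 0.3, adjusted 0.7). The lengths of Adgrv1 varied the most, with 6537, 6303 and 7171 bases in control and 6433, 7189 and 6147 bases in EFV-treated libraries. Its FPKM and its length moved oppositely between libraries: the 2 libraries with the longest length, control 3 and EFV-treated library 2, had the lowest FPKM. On CPM divided by the fixed length of the longest annotated transcript, Adgrv1 was 7.04 to 7.95 in the 6 libraries and these 2 libraries were no longer the lowest.

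Genes that surround the network in the cell were read from fixed lists. Of 16 genes whose proteins bind a member, 15 were listed and tested. Of these, 1 passed the limits of the study, against 3.01% of all genes tested. The groups did not overlap for 2 of them, against 8.14% of all genes tested. Their median log2 fold change was 0.02 and the range -0.11 to 0.75. Myo15, also named Myo15a, which encodes the motor that carries whirlin to the tips of stereocilia, was at 0.15, 0.12 and 0.17 FPKM in control and 0.21, 0.26 and 0.26 FPKM in EFV-treated libraries. All EFV-treated libraries were above all controls, and the log2 fold change was 0.75 (SE 0.23, 95% interval 0.22 to 1.28, adjusted p = 0.999 by edgeR with Benjamini-Hochberg adjustment), at 22 to 54 counts per library. Myo15 passed without each library in turn (0.61 to 0.90), and did not pass with the RPE marker covariate (0.52) or with limma on log2(FPKM + 1) (0.12). The study also chose Myo15 on these samples, so this is not independent evidence of its direction. Plekhb1, a membrane protein of photoreceptors that binds MYO7A, was the most abundant with 364 to 419 FPKM (log2 fold change -0.08, SE 0.06). Slc4a7, a bicarbonate cotransporter that binds harmonin, was at 30.5, 29.9 and 31.0 FPKM in control and 34.8, 31.1 and 31.9 FPKM in EFV-treated libraries. Its groups did not overlap either, and its log2 fold change of 0.08 (SE 0.05) did not pass. Sptbn5 was not analysed here.

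Genes of the hair bundle of the inner ear were partly below the filter in the retina. Of 18 listed, 11 passed the filter on low counts and 0 of these passed the limits of the study, against 3.01% of all genes tested. Fscn2, the actin bundling protein of photoreceptors and stereocilia, was at 75.9 to 81.9 FPKM and the actin linker Rdx at 21.2 to 23.6 FPKM. The 7 that did not pass the filter included the channel genes Tmc1 and Tmc2, each at 0.05 FPKM or less in every library, and the tip link gene Pcdh15 was at 17.9 FPKM or more.

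Of the paralogues of the members, only Cib1 was expressed above the filter, of 7 listed. Cib1, the broadly expressed relative of Cib2, was at 7.87, 6.37 and 7.38 FPKM in control and 9.17, 9.01 and 8.27 FPKM in EFV-treated libraries, so the groups did not overlap and the gene passed the limits of the study (log2 fold change 0.27, SE 0.11). Over all genes tested, 8.14% had groups that did not overlap and 3.01% passed these limits. The call for Cib1 was lost without each of 4 of the 6 libraries (controls 2 and 3, EFV-treated libraries 1 and 2). The difference between the changes of Cib1 and Cib2 was not tested. Cib4 was next with 0.00 to 0.23 FPKM, and the gut and kidney paralogues Anks4b, Cdhr2 and Cdhr5, which build a similar link complex between microvilli, were each at 0.14 FPKM or less.

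Of 3 genes of Usher-like disease 1 passed the limits of the study, against 3.01% of all genes tested: Arsg, a lysosomal sulfatase. It was at 8.01, 7.11 and 7.80 FPKM in control and 9.23, 9.18 and 8.76 FPKM in EFV-treated libraries (log2 fold change 0.16, SE 0.05). Abhd12, a lipase, was at 71.5 to 78.1 FPKM and Cep250, a centrosomal protein, at 16.1 to 21.4 FPKM, both with overlapping groups. Arsg passed without each library in turn, and did not pass with DESeq2 or the RPE marker covariate. Of 10 genes of the connecting cilium 1 passed, against the same 3.01%: Rpgr, the GTPase regulator mutated in X-linked retinitis pigmentosa. It was at 12.4 to 13.8 FPKM in control and 14.1 to 14.3 FPKM in EFV-treated libraries (log2 fold change 0.12, SE 0.05). The call for Rpgr was lost without each of 4 libraries (controls 1 and 3, EFV-treated libraries 1 and 3). Tulp1 and Rp1, the most abundant of the cilium list, had log2 fold changes of -0.08 (SE 0.05) and 0.02 (SE 0.07). None of these genes was called after adjustment.

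Markers of the retinal cells other than RPE were also read. Of 11 rod, 9 cone and 8 Muller cell markers, 0 passed the limits of the study, against 3.01% of all genes tested. Their medians were -0.01, -0.02 and -0.03 on the log2 scale. Leaving out a library gave 0 to 2 rod markers (2 without EFV-treated library 2), 0 to 1 cone marker (1 without control 1 or EFV-treated library 3) and 0 to 2 Muller cell markers (2 without control 2, 1 without control 1). The rod genes Gnat1 and Sag had log2 fold changes of -0.06 (SE 0.03) and -0.03 (SE 0.08), the cone genes Pde6h and Opn1sw -0.02 (SE 0.07) and -0.10 (SE 0.07), and the Muller cell genes Glul and Clu -0.03 (SE 0.03) and -0.14 (SE 0.07). All 12 lens markers tested were below 0, 11 of them past the limits of the study, with Cryaa at 1341 FPKM in control 3 and 10.7 to 73.7 FPKM elsewhere, and the count of 11 became 0 without control 3 or EFV-treated library 2, 1 without EFV-treated library 1, 3 without EFV-treated library 3 and 12 without control 1 or 2. Col1a2 was the fibroblast marker that passed (0.62, 0.53 and 0.87 FPKM in control and 0.95, 1.05 and 0.89 FPKM in EFV-treated libraries, log2 fold change 0.50); Col1a2 and part of the lens markers were also chosen by the study on these samples. The RPE genes Ttr and Rrh had log2 fold changes of 0.33 (SE 0.23) and -0.03 (SE 0.08), and the matrix genes Fn1 and Col5a1 -0.01 (SE 0.06) and 0.29 (SE 0.14).

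The members shared cell compartments in the annotation that comes with the data. They were chosen as a known network, so shared terms describe this choice and are not a result of these libraries. The term photoreceptor inner segment was attached to 6 of the 9 (Cdh23, Cib2, Myo7a, Ush1c, Ush1g and Whrn), and to 0.287% of the tested genes with any cell compartment term. Stereocilium was attached to 6 (0.239% of those genes), photoreceptor outer segment to 4 (0.47%), synapse to 4 (1.72%) and photoreceptor connecting cilium to 3 (Myo7a, Ush1g and Whrn, 0.271%). Except for synapse, longer terms that hold the same words were counted as the term. In position the members did not share a locus: they lie on chromosomes 3, 4, 7, 9, 10, 11 and 13, with Myo7a and Ush1c both on chromosome 7 and Cdh23 and Pcdh15 both on chromosome 10.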

How the data were processed

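RNA of 3 control and 3 EFV-treated pools was analysed. The authors filtered reads, aligned them to mm10 with Bowtie2 2.2.5 (HISAT2 2.0.4 is also named in the submitters' processing notes) and made the deposited expected counts with RSEM 1.2.12; the deposited FPKM values are these counts per length and library total, rounded, and the deposited length is the weighted transcript length. A gene not listed in a library was taken as 0. Strandedness and annotation release are not given in the sources used here.

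Expected counts were rounded, and a gene was tested if 3 or more libraries held 10 or more of its counts, with edgeR 4.0.16 (R 4.3.3; TMM, quasi-likelihood, two-sided, Benjamini-Hochberg over all genes). The study based its limits on a Poisson model, which was an alternative, as were DESeq2 1.42.0, limma 3.58.1 on log2(FPKM + 0.1) and log2(FPKM + 1), other scalings and filters, a replicate block, marker covariates and leaving out each library. Fold changes are EFV-treated over control. Intervals use the degrees of freedom of the fit. Scripts were tested on simulated data.

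The members and lists were chosen with earlier results of these data known. Named genes are the members, the 2 most abundant and every gene with p up to 0.05 in each list, and the 3 profiles nearest to Myo7a; Tmc1, Tmc2, Cib4 and the other paralogues were named after their values were seen. The 11 lens markers past the limits are given as a count. A further rod marker is not reported here.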

Additional observations from a re-analysis of the deposited data

How the results depend on the processing

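For the members, 18 alternatives gave 162 log2 fold changes, of which 8 had the opposite sign. These were Pcdh15 without control 1 or EFV-treated library 3 (range without a library -0.040 to 0.045), Adgrv1 with the RPE covariate (-0.0034) and without control 2 or EFV-treated library 1 (range -0.017 to 0.046), and Clrn1 with the lens covariate (0.062) and without control 3 or EFV-treated library 3 (range -0.13 to 0.12). The number of members past the limits of the study was 0. It became 1 (Myo7a) with no filter, DESeq2 and the lens covariate, where 2.97%, 1.73% and 3.15% of all genes tested passed. With the Poisson model, which takes no spread between pools into account, it became 3 (Myo7a, Ush1c and Ush1g) against 14.8% of all genes. That model called 2 members after adjustment, against 2043 of 15537 genes. Leaving out a library gave 0 to 1 (Myo7a without control 3, against 3.41% of all genes, and Whrn without EFV-treated library 2, against 3.5%). Over all genes, adjusted calls were 0, against 11 with DESeq2, 2043 with the Poisson model and 0 to 1 without a library (1 without EFV-treated library 1); genes past the limits were 467, against 269 and 2305 with those models and 389 to 576 without a library. Lengths without overlap between groups were 0, and 0 to 2 without a library, and ratios without overlap were 2, and 2 to 4 without a library (4 without EFV-treated library 2). Of the 9 ranks by level, 5 held per longest annotated transcript. The call of Col1a2 was lost without controls 1 or 2 or EFV-treated libraries 1 or 2. The scalings moved the median of all genes by at most 0.02 (log2).

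The deviations of same-numbered libraries correlated weakly, with r = 0.125, 0.0832 and 0.0992. For libraries of unlike number r lay between -0.101 and -0.00629, so each library correlated best with its own number. The deviations were taken from the mean of the 3 libraries of a group and sum to 0 there. Positive r for like numbers therefore goes with lower r for unlike numbers by construction, and the contrast is not separate evidence. Whether the replicate numbers pair the libraries was not tested. With the replicate number as a block, 1 member passed the limits of the study (Myo7a, log2 fold change -0.31, unadjusted p = 0.0285 by edgeR) against 3.31% of all genes under the same fit, and 0 genes were called after adjustment.

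Counting error alone is 12.4% for Cdh23 and 12.9% for Ush1c per library, against 1.33% for Pcdh15. The control counts varied by 23.3% for Ush1c, 19.1% for Myo7a (counting error 6.00%), 17.1% for Ush1g (10.4%) and 15.8% for Clrn1 (9.48%). The spread of the control counts thus exceeded counting error for these 4. Counts were not scaled to the library total here, so differences in library total are part of this spread. Among EFV-treated pools the spread was 13.6% for Ush1c and 18.7% for Clrn1. For Myo7a (5.53%) and Ush1g (5.13%) it did not exceed counting error there. The control spread also exceeded counting error for Adgrv1 (7.47% against 1.68%), Pcdh15 (4.27%), Cib2 (12.5% against 8.16%) and Whrn (2.08% against 1.71%), but not for Cdh23 (9.21%). The excess was small for Whrn, and no excess over counting error was tested. With 3 pools a group, the cause of the changes with the library left out was not tested.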
